A study of Mus musculus with 6 samples.

Results

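The synaptogyrin and synaptophysin family was examined in the mRNA profiles of the prefrontal cortex of aged mice. The family was taken as 7 gene symbols, Syp, Synpr, Sypl, Syngr1, Syngr2, Syngr3 and Syngr4, and the members were the rows whose Ensembl identifier maps to these symbols. Of the 7 genes, 6 were among the 21006 genes of the deposited tables, and Syngr4, a testis-enriched synaptogyrin, was not analysed here. The study lists Syngr2 as a predicted target of mmu-miR-451a, and the other members were included as its relatives. Such targets were taken by the study from the mRNAs that it called changed in these same libraries, so the choice of Syngr2 is not independent of the values below. All animals were male C57BL/6 mice of 18 months, although the sample titles read 17M. The PND group (n = 3), a model of postoperative neurocognitive disorder, was exposed to 1.5% isoflurane for 30 min and then had an exploratory laparotomy of 30 min under isoflurane, in which the abdomen is opened and its organs are inspected. The operated mice also received lidocaine cream and povidone iodine at the end of the operation and daily in the days after it. The CON group (n = 3) had neither anesthesia nor operation. The effects of the anesthetic, of the surgery and of the wound care therefore cannot be told apart. Mice of both groups went through fear conditioning with foot shock, an open field test and the Barnes maze. In both groups the tissue was taken after the Barnes maze test, which came days after the operation, under deep isoflurane after saline perfusion. Each library came from 1 animal.

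The proteins of this family are small membrane proteins that cross the membrane 4 times and carry the MARVEL domain, a fold shared with proteins of tight junctions and myelin. Synaptophysin is among the most abundant proteins of the synaptic vesicle and is the usual marker of presynaptic terminals. It binds the vesicle SNARE synaptobrevin (Vamp2) and takes part in its retrieval after a vesicle has fused. Synaptoporin is a close relative found in a subset of synapses, and Sypl, also called pantophysin, occurs on transport vesicles of many cell types. Synaptogyrin 1 and synaptogyrin 3 are neuronal and sit on synaptic vesicles, whereas synaptogyrin 2, also called cellugyrin, is found in most tissues outside the brain.

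A short stretch of Syngr2 is complementary to part of mmu-miR-451a. It is shown here because the study pairs this miRNA with Syngr2, from database records of miRNA targets. The study names no site in Syngr2, and the match shown was found by searching the annotated transcripts. The mature miRNA lies at chr11:78073186-78073207 on the plus strand (RefSeq, GRCm38.p6), and the capitals mark its seed, bases 2 to 8. The mRNA window is the last 29 bases of transcript Syngr2-201 (GENCODE M21, GRCm38, plus strand), and the capitals mark the 7 bases complementary to the seed.

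mmu-miR-451a: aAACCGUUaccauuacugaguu

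Syngr2-201, end of the 3′ UTR: ttggagatggaataAACGGTTtttctcag

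The match lies at chr11:117814269-117814275, 8 bases before the end of the transcript. It was present in 2 of the 7 annotated Syngr2 transcripts, Syngr2-201 and Syngr2-202, in both of them in the 3′ UTR. No coding transcript of another member held the 7 bases, and Sypl-205, a retained-intron transcript of Sypl, held them once. The 7 bases were found, at any position, in the longest transcript, coding or not, of 4.33% of 21951 coding genes. The share was 1.87% of the 908 among them whose longest transcript was about as long as Syngr2-201. With a shorter seed of bases 2 to 7, Syp-201 and the coding transcripts Sypl-201 and Sypl-202 also had a match in the 3′ UTR. Counted in the same way as the 7 bases, 15.7% of coding genes, or 7.82% of those of like length, had 1 or more. The match is a description of letters and no measurement of binding.

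The levels were FPKM, in which fragments are scaled to exon length and library size, and can thus be compared between genes. Syp was the most abundant member with a mean of 86.5 FPKM over the 6 libraries, rank 166 of all genes. Syngr1 followed with 24.8 FPKM, and every library had more Syp than the library richest in Syngr1. Syngr3 (7.70 FPKM), Synpr (7.19 FPKM) and Sypl (6.21 FPKM) came next, and their ranges over libraries overlapped, so that their order was not resolved. Syngr2 was far below the others with 0.196 FPKM, and its highest library (0.396 FPKM) stayed under the lowest of Sypl (5.54 FPKM). Syp alone made up between 61.6% and 68.3% of the FPKM of the family in each library.

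**Figure D1:**
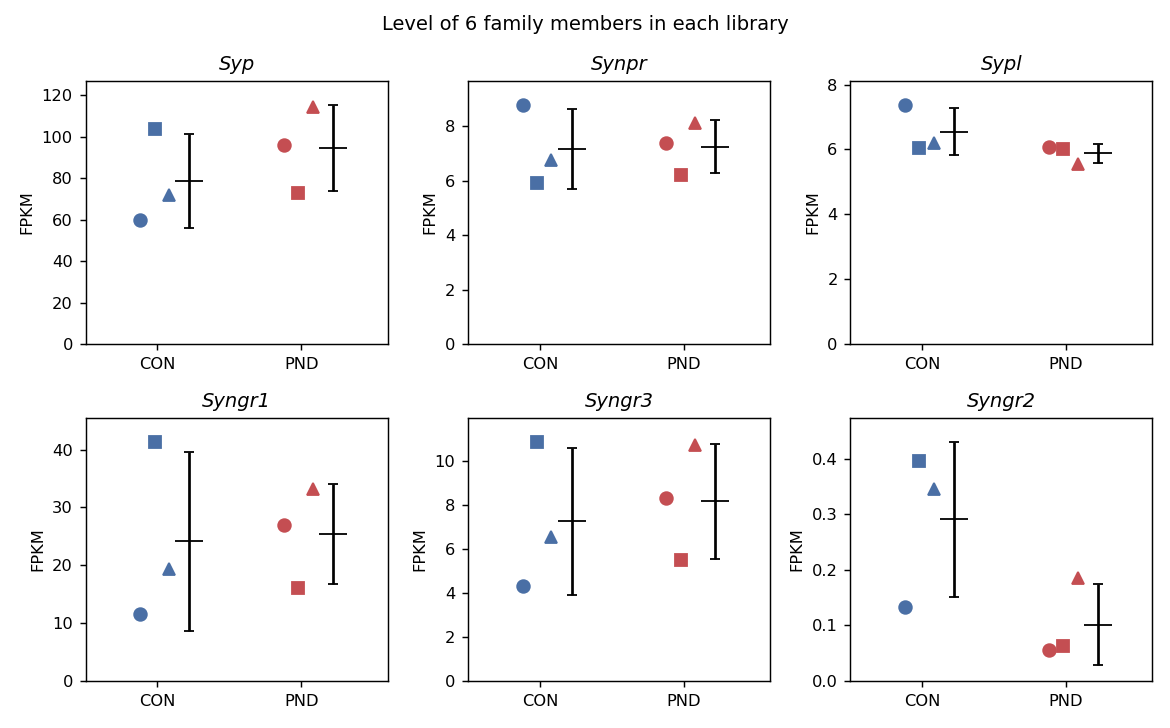
Level of the 6 members in FPKM (vertical axes, linear from 0, scaled for each gene) in the CON libraries (blue) and the PND libraries (red). Circles, squares and triangles are replicates 1, 2 and 3, and the black bar is the mean with its SD (n = 3). The groups overlap for each member, and Syngr2 has its highest PND library at 0.185 FPKM, above only the lowest CON library at 0.132 FPKM.

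Among the 6 members none differed between PND and CON in the limma test on log2(FPKM + 0.1). The cut-off of the study, an absolute log2 fold change above 1 with an unadjusted p below 0.05, was applied to this fit. None of the members passed it, and 1.33% of the 18185 genes tested did. The study took its folds from FPKM, names edgeR as well as limma, and counted Syngr2 among its changed mRNAs. A miss in this fit is therefore not a miss by the procedure of the study. None had an unadjusted p below 0.05, a limit that 3.13% of all genes met. The adjusted p of every member was 0.9999, and 0.011% of all genes (2 genes) had an adjusted p below 0.05. No member had groups that did not overlap, which was the case for 7.66% of all genes. The median log2 fold change of the 6 members was 0.12, with 4 higher and 2 lower in PND, and over all genes the median was 0.01 with 52.4% higher.

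Syp, the vesicle protein synaptophysin, was measured at 95.9, 72.9 and 114.5 FPKM in PND 1 to 3 and at 60.0, 103.7 and 71.7 FPKM in CON 1 to 3. CON 2 lay among the PND values and PND 2 among the CON values. The log2 fold change was 0.28 ± 0.24 (SE, n = 3 per group, 95% interval -0.27 to 0.83, limma p = 0.27, exact permutation p = 0.4). Without CON 2 it was 0.50 with a limma p of 0.0434, and it was 0.11 without CON 1 (limma p of 0.66) and 0.13 without PND 3 (limma p of 0.62), so that single libraries set its size. Syp lies on the X chromosome (chrX:7638471-7653256, plus strand, GRCm38) and 16.8% of its exon bases are shared with the antisense gene Gm14703, which was listed between 0 and 0.0695 FPKM.

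Synpr, which encodes synaptoporin, was at 7.39, 6.20 and 8.13 FPKM in PND and at 8.78, 5.91 and 6.75 FPKM in CON. Both the highest and the lowest value were control libraries. Its log2 fold change was 0.03 ± 0.19 (SE, 95% interval -0.41 to 0.47, limma p = 0.883, exact permutation p = 0.9), and it turned negative without PND 3 (-0.059), CON 2 (-0.097) or CON 3 (-0.0021). Sypl, the more widely expressed pantophysin, was at 6.06, 6.03 and 5.54 FPKM in PND and at 7.37, 6.06 and 6.21 FPKM in CON. Its highest library held 1.33 times the level of its lowest, the narrowest range of the 6 members. The log2 fold change of Sypl was -0.15 ± 0.14 (SE, 95% interval -0.47 to 0.18, limma p = 0.319, exact permutation p = 0.2), and without CON 1 it was -0.062 (limma p of 0.672). The longest Sypl transcript had stretches of at least 100 bases that matched 24 other genes at 95% identity or more, and how fragments from them were assigned was not given in the sources used here.

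Syngr1 was the most abundant synaptogyrin, at 26.9, 16.1 and 33.2 FPKM in PND and at 11.6, 41.4 and 19.4 FPKM in CON. The controls spanned the PND values on both sides, and the highest library held 3.58 times the level of the lowest. The log2 fold change was 0.21 ± 0.46 (SE, 95% interval -0.88 to 1.29, limma p = 0.665, exact permutation p = 0.8). Syngr3, the other neuronal synaptogyrin, was at 8.29, 5.48 and 10.7 FPKM in PND and at 4.32, 10.9 and 6.55 FPKM in CON. The libraries stood in the same order as for Syngr1. Its log2 fold change was 0.22 ± 0.36 (SE, 95% interval -0.64 to 1.07, limma p = 0.571, exact permutation p = 0.8). Leaving out CON 1 or PND 3 turned the estimates below 0, to -0.22 and -0.016 for Syngr1 and to -0.10 and -0.0034 for Syngr3. The intervals over all libraries include a change of 2-fold for both genes.

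Syngr2, the synaptogyrin of non-neuronal tissues and the predicted miR-451a target, had the lowest level and the largest estimated difference. It was at 0.0561, 0.0627 and 0.185 FPKM in PND and at 0.132, 0.396 and 0.345 FPKM in CON. PND 1 and PND 2 were the lowest of the 6 libraries, while PND 3 lay above CON 1. The PND mean was 0.101 ± 0.0726 FPKM and the CON mean 0.291 ± 0.140 FPKM (SD, n = 3 each). The CON mean was 2.87 times the PND mean on the FPKM scale, on which the study computed its folds, and the added 0.1 FPKM makes the fold smaller at this level. The log2 fold change of log2(FPKM + 0.1) was -0.94 ± 0.48 (SE, 95% interval -2.06 to 0.17, limma p = 0.0867, exact permutation p = 0.2). The permutation tests were two-sided, and with 3 against 3 libraries their p cannot go below 0.1. The difference missed 0.05 in limma, and the permutation test could not have reached it. Without CON 1 the log2 fold change was -1.28 with a limma p of 0.035, past the cut-off.

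**Figure D2:**
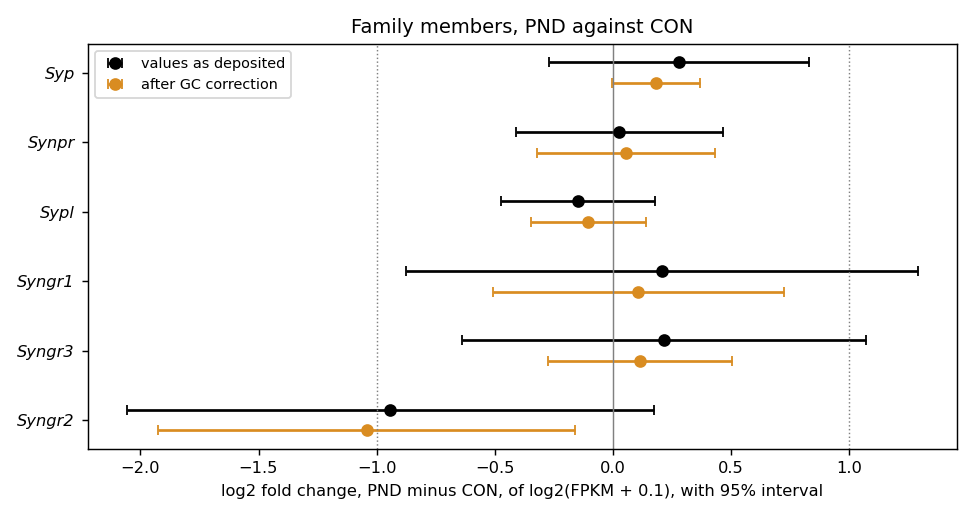
Log2 fold change of each member, PND minus CON, on the scale of log2(FPKM + 0.1) (horizontal axis), with the 95% interval of limma, for the deposited values (black) and after GC correction with the coding transcript (orange). Dotted lines mark the fold change of the cut-off. For the deposited values every interval includes 0, and after GC correction the interval of Syngr2 runs from -1.92 to -0.16.

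Very few fragments stood behind the Syngr2 values. The 6 values were whole multiples of a common step within 0.00479 of a step, namely 2, 2 and 7 steps in PND and 4, 13 and 10 steps in CON. If each step was 1 fragment, the groups held 11 and 27 fragments, and the ratio of PND to CON after scaling for depth was 0.356 with an exact 95% counting interval of 0.159 to 0.741. With the exon length of GENCODE M21 the same values came to about 5 and 12 fragments, a ratio of 0.364 with an interval of 0.1004 to 1.11. These intervals cover counting error only, leave out the variation between animals, and treat all fragments as independent molecules. The other members rested on at least 67.0 estimated fragments per library.

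A neighbouring gene makes the Syngr2 value less certain. Gm20708, annotated as a protein-coding readthrough gene (chr11:117809668-117839904, plus strand, GRCm38), starts at the same base as Syngr2 and shares 136 exon bases with it, and 88.0% of its own exon bases are shared with Afmid, the kynurenine formamidase gene downstream. Gm20708 was at 0.699, 0.426 and 0.718 FPKM in PND, which is 11, 6 and 12 fragments, and was listed at 0 in each CON library. Afmid was at 0.130, 0.122 and 0.0820 FPKM in PND and at 0.180, 0.165 and 0.321 FPKM in CON. Fragments assigned to the readthrough gene were therefore found in PND only, and both genes that share its exons had lower mean levels there. The limma p of Gm20708 was 0.00012 with an adjusted p of 0.217, and that of Afmid was 0.180 with an adjusted p of 0.9999. Gm20708 and Afmid were singled out after their values were seen, and their part in the Syngr2 difference was not tested. How StringTie divided fragments between these genes was not given in the sources used here.

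The libraries differed in how well GC-rich genes were represented, and 3 of the 6 members followed this difference. Syngr1, Syngr2, Syngr3 and Syp have coding transcripts with 56.8%, 56.9%, 57.0% and 56.6% GC, whereas Sypl has 38.8% and Synpr 40.6%. In the most GC-rich decile of genes (1233 genes, median GC content 58.8%), the median log2 deviation from each gene's mean was 0.10, -0.31 and 0.38 in PND 1 to 3 and -0.56, 0.50 and -0.04 in CON 1 to 3. The split was not one between the groups, since CON held both the lowest and the highest library. Syngr1 followed this measure across the 6 libraries with Pearson r = 0.992 (exact permutation p = 0.00139, BH-adjusted p = 0.00417 over 6 relations) and Spearman rho = 1 (exact permutation p = 0.00278, adjusted p = 0.00833). Syngr3 did so with the same rho and p-values and r = 0.992, and without the 2 libraries farthest from the median r was 0.9751 for Syngr1 and 0.988 for Syngr3. For Syp r was 0.934 (exact permutation p = 0.00833, adjusted p = 0.0167) and rho 0.886 (exact permutation p = 0.0333, adjusted p = 0.0667), with r = 0.902 without those 2 libraries. Syngr2 did not follow it in this test, with r = 0.497 (exact permutation p = 0.3) and rho = 0.486 (exact permutation p = 0.356). The AT-rich members had negative coefficients, with r = -0.758 and rho = -0.543 for Sypl (exact permutation p = 0.0736 and 0.297) and r = -0.356 and rho = -0.429 for Synpr (exact permutation p = 0.467 and 0.419). Over the middle 4 libraries r was 0.993 for Synpr, so its coefficient rests on the 2 outer ones.

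**Figure D3:**
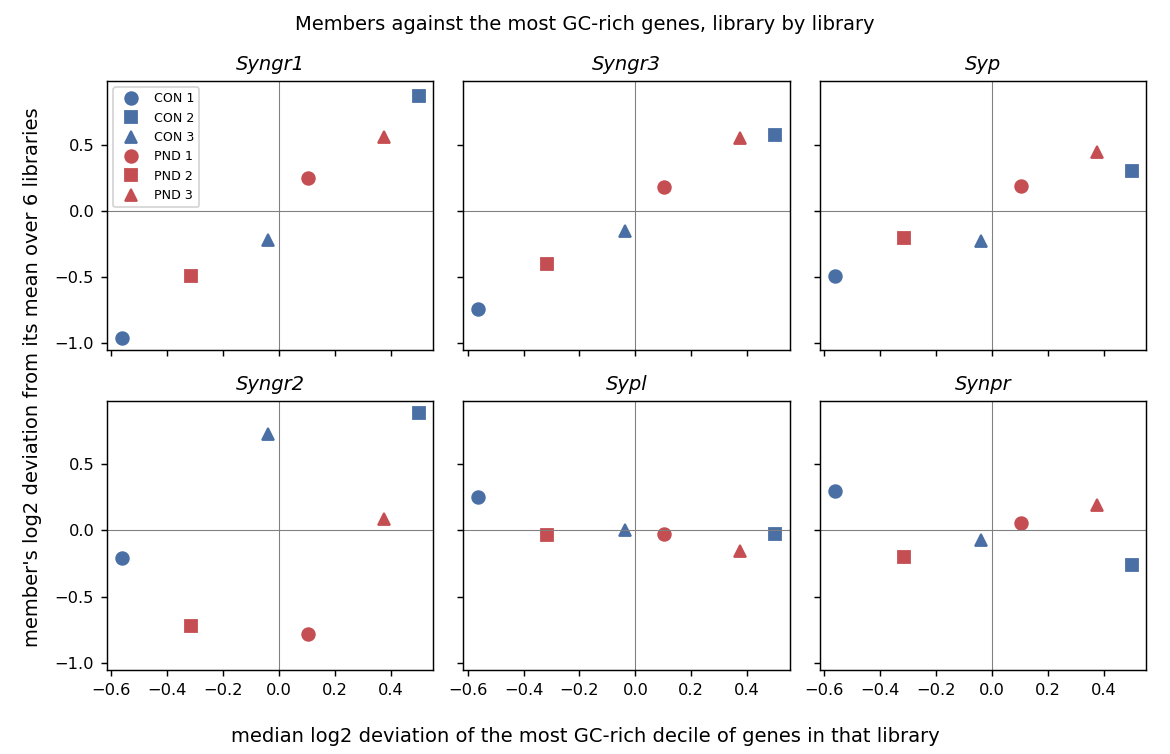
Each point is 1 library. The horizontal axis is the median log2 deviation of the most GC-rich decile of genes in that library, and the vertical axis is the log2 deviation of the member from its mean over the 6 libraries. Syngr1, Syngr3 and Syp rise along the axis from CON 1 to CON 2, and for Syngr2 the PND libraries (red) lie below the CON libraries (blue) of similar position.

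Of the pairs among these 3 members, 2 passed the adjusted threshold by r, and no pair with Syngr2, of similar GC content, did so. Over 15 pairs of members, Syngr1 and Syngr3 had r = 0.991 (exact permutation p = 0.00139, adjusted p = 0.0208) and rho = 1 (exact permutation p = 0.00278, adjusted p = 0.0417), with r = 0.995 without the 2 farthest libraries. Syngr3 and Syp had r = 0.971 (exact permutation p = 0.00556, adjusted p = 0.0417) and rho = 0.886 (exact permutation p = 0.0333, adjusted p = 0.167), with r = 0.959 without the 2 farthest libraries. Syngr1 and Syp had r = 0.949 (exact permutation p = 0.0139, adjusted p = 0.0521) and rho = 0.886 (exact permutation p = 0.0333, adjusted p = 0.167), which missed the adjusted threshold. Syngr2 had r = 0.420, 0.399 and 0.187 with Syngr1, Syngr3 and Syp (exact permutation p from 0.392 to 0.686), and the AT-rich Sypl and Synpr had r = 0.392 (exact permutation p = 0.463). Syp and Sypl had r = -0.819 (exact permutation p = 0.0125, adjusted p = 0.0521) and rho = -0.829 (exact permutation p = 0.0583, adjusted p = 0.219), with r = -0.436 without the 2 farthest libraries. After a loess correction of each library for the GC content of the coding transcript, Syngr1 and Syp had r = 0.346 (exact permutation p = 0.503), Syngr3 and Syp had r = 0.495 (exact permutation p = 0.306) and rho = 0.600 (exact permutation p = 0.242), and Syngr1 and Syngr3 had r = 0.963 (exact permutation p = 0.00694, adjusted p = 0.104) and rho = 0.943 (exact permutation p = 0.0167, adjusted p = 0.25). Syngr2 and Syp then had r = -0.814 (exact permutation p = 0.0472, adjusted p = 0.354) and rho = -0.771 (exact permutation p = 0.103, adjusted p = 0.725), with r = -0.696 without the 2 farthest libraries. No pair had an adjusted p below 0.05 after the correction. The pairs share their libraries, and those among GC-rich members also their base composition, and the cause was not tested.

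The promoters of Syngr1 and Syp are shown because these were the most abundant members and both followed the GC-rich decile by Pearson's r. Each run has 250 bases before and 50 after the annotated start (RefSeq, GRCm38.p6), and the capitals mark each GC box, GGGCGG on either strand. Windows of this kind were given for 5 of the 7 members.

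Syngr1, chr15:80091084-80091383, plus strand: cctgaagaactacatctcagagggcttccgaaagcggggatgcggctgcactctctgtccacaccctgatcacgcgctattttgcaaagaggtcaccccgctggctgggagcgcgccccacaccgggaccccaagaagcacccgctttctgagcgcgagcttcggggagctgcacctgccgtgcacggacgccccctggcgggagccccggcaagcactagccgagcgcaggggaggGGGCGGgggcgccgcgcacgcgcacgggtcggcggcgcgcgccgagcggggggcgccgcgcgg

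Syp, chrX:7638330-7638629, plus strand: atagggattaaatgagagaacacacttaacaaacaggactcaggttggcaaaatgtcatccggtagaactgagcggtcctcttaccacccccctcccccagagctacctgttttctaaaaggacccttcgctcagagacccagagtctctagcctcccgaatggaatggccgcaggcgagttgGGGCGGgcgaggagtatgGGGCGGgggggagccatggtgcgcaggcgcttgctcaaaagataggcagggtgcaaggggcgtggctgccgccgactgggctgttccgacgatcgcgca

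The Syngr1 window had 1 such box and 72.3% GC, and the Syp window had 2 boxes and 59.0% GC. A GC box was present in 35.7% of the 32851 promoter windows of the mouse, so its presence sets neither gene apart.

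After the GC correction with the coding transcript, a version chosen after the data were seen, the spread within groups was smaller for each of the 6 members. With the longest transcript, coding or not (for Syp one with 45.4% GC), the spread of Syp was not smaller, with a log2 fold change of 0.27 ± 0.25 (SE, limma p of 0.315) beside an SE of 0.24 for the deposited values. With the coding transcript the within-group SD on the log2 scale fell from 0.37 to 0.07 for Syp, from 0.75 to 0.42 for Syngr1, from 0.58 to 0.23 for Syngr3 and from 0.54 to 0.30 for Syngr2. The corrected Syngr2 deviations were -0.88, -0.47 and -0.21 in PND and 0.25, 0.54 and 0.78 in CON, and those of Syp were 0.08, 0.04 and 0.15 in PND and -0.05, -0.04 and -0.19 in CON. The groups then did not overlap for 3 of the 6 members, with Syngr2 and Sypl lower in PND, as were 5.69% of all genes, and Syp higher, as were 4.32%. Syngr2 passed the cut-off after correction with a log2 fold change of -1.04 ± 0.38 (SE, limma p of 0.0266), as did 1.39% of all genes, and its adjusted p was 0.9996. With the coding transcript the corrected log2 fold change of Syp was 0.18 ± 0.08 (SE, limma p of 0.0551) and that of Sypl was -0.10 ± 0.10 (SE, limma p of 0.35).

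The ratio of Syngr2 to Syp within each library compares genes of almost the same GC content and was also formed after the values were seen. Syngr2 amounted to 0.0585%, 0.0861% and 0.162% of the FPKM of Syp in PND and to 0.221%, 0.382% and 0.481% in CON. All PND libraries were below all CON libraries, which was the case in either direction for 8.58% of 18184 genes divided by Syp in the same way. The exact permutation p on the log2 ratio was 0.1, the smallest that 3 against 3 libraries allow, and the ratios of the other 4 members to Syp overlapped between groups.

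**Figure D4:**
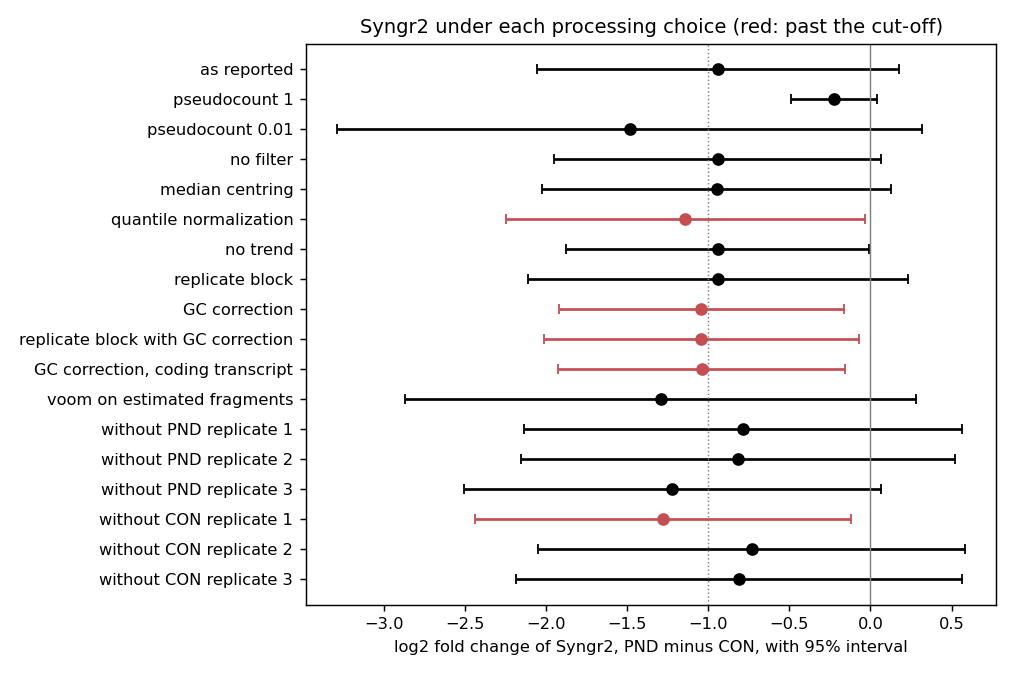
Log2 fold change of Syngr2, PND minus CON (horizontal axis), with its 95% interval from limma under each processing choice (rows). Red marks the choices under which Syngr2 passed the cut-off and the dotted line its fold change of -1. The estimates are negative in each row and run from -1.48 to -0.23.

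The rest of the vesicle machinery was described by 4 gene lists. Of 20 other vesicle membrane proteins, 14 were higher and 6 lower in PND, with a median log2 fold change of 0.17, and 1 had an unadjusted p below 0.05. This was Slc6a17, a transporter of neutral amino acids into vesicles, at 15.002, 10.8 and 16.1 FPKM in PND and at 4.65, 9.05 and 6.54 FPKM in CON. All of its PND values were above all of its CON values, and it passed the cut-off (log2 fold change 1.07 ± 0.26, SE, limma p = 0.00436, exact permutation p = 0.1, adjusted p = 0.9999). Its log2 fold change fell short of 1 after GC correction (0.97, also with the replicate block), with a pseudocount of 1 (0.97) and without PND 3 (0.95) or CON 1 (0.83). Of 23 vesicle-associated and fusion proteins, 13 were higher and 10 lower with a median of 0.04, and none had a p below 0.05. Of 18 proteins of vesicle retrieval, 12 were higher and 6 lower with a median of 0.05. Snap91, the clathrin adaptor AP180 that acts in the recovery of synaptobrevin, was at 18.8, 18.7 and 26.1 FPKM in PND and at 32.6, 33.4 and 33.9 FPKM in CON. Its groups did not overlap, and its log2 fold change was -0.67 ± 0.15 (SE, limma p = 0.00244, exact permutation p = 0.1, adjusted p = 0.9999), short of the fold change of the cut-off. Of 17 other MARVEL-domain genes tested, 9 were higher and 8 lower with a median of 0.00, and none had a p below 0.05.

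**Figure D5:**
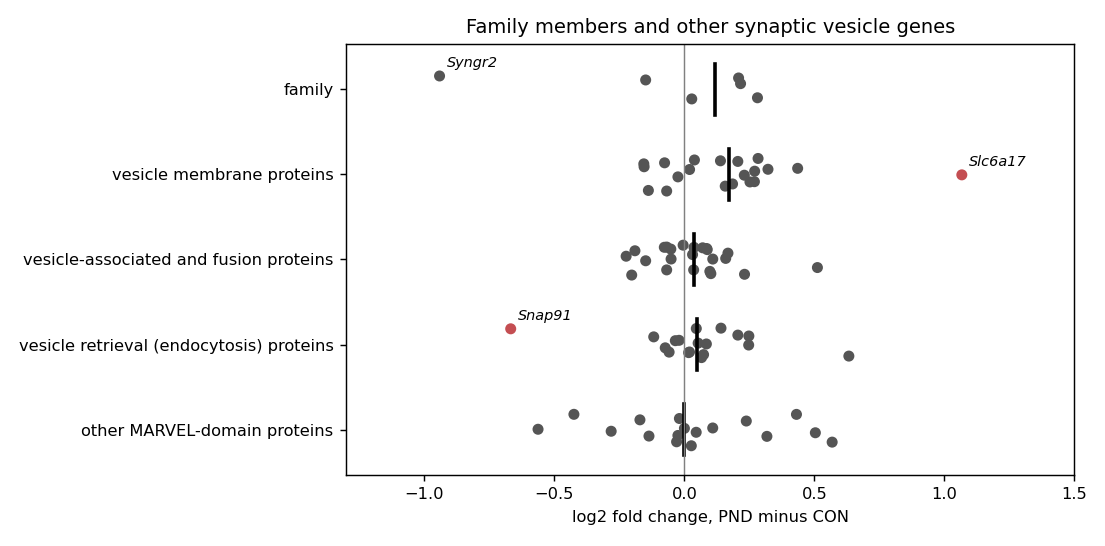
Log2 fold change, PND minus CON (horizontal axis), of the 6 members and of the genes of 4 lists (rows). Each point is a gene, the black bar is the median of the row, and red marks an unadjusted limma p below 0.05. Slc6a17 at 1.07 and Snap91 at -0.67 are the red points, and Syngr2 at -0.94 lies apart from the other members.

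The 8 landmark genes of the vesicle cycle gave no call with the values as deposited. Vamp2, the vesicle SNARE bound by synaptophysin, averaged 139.7 ± 18.7 FPKM in the PND group and 122.9 ± 18.0 FPKM in the CON group (SD, n = 3 each, log2 fold change 0.19 ± 0.15, SE). Sv2a, a vesicle glycoprotein, and Syt1, the calcium sensor of release, had log2 fold changes of 0.21 ± 0.24 and -0.07 ± 0.10 (SE). Leaving out 1 library moved the estimates to between 0.092 and 0.30 for Vamp2, 0.0086 and 0.43 for Sv2a, and -0.13 and -0.019 for Syt1. Snap25 (-0.05 ± 0.13) and Stx1a (-0.19 ± 0.26), the SNAREs of the plasma membrane, and Syn1 (-0.0047 ± 0.14), which tethers vesicles, were close to 0 relative to their SE. The vesicular transporters of glutamate, Slc17a7, and of GABA, Slc32a1, had log2 fold changes of 0.02 ± 0.43 and 0.28 ± 0.39 (SE). The unadjusted limma p of these 8 genes ranged from 0.246 to 0.9746. After GC correction Stx1a had a log2 fold change of -0.30 with a limma p of 0.0434, short of the fold change of the cut-off.

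In whole tissue, fewer cells of a type and less RNA per cell cannot be told apart. The neuronal markers (5 of 5 detected) summed to between 254.6 and 275.2 FPKM in PND and between 233.3 and 279.5 FPKM in CON, and none had a p below 0.05. For endothelial cells, which like other non-neuronal cells can express Syngr2, the 5 markers summed to between 16.4 and 20.46 FPKM in PND and between 14.9 and 17.01 FPKM in CON, with 3 higher and 2 lower in PND. The 6 microglial markers summed to between 24.9 and 38.2 FPKM in PND and between 23.2 and 41.4 FPKM in CON, with 4 higher and 2 lower (median log2 fold change 0.22). Of 5 oligodendrocyte markers 1 was higher and 4 were lower (median -0.19), of 5 astrocyte markers 3 were higher and 2 lower (0.05), and of 6 markers of pericytes, smooth muscle and fibroblasts 2 were higher and 4 lower (-0.04). Of the 3 tested blood cell markers 2 were higher and 1 lower (median 0.996), and the 4 in the files summed to between 0.433 and 3.02 FPKM in PND and between 0.346 and 0.593 FPKM in CON, with PND 1 apart from the rest. Single markers with an unadjusted limma p below 0.05 included the astrocyte genes Gfap (log2 fold change 0.66) and Aqp4 (-0.36), the microglial P2ry12 (-0.76), against the direction of most of its list, the endothelial Ly6c1 (0.79) and Clic6 of choroid plexus (0.80). All 3 choroid plexus markers tested were higher in PND. Clic6 lost this p without PND 1, PND 3, CON 1 or CON 2 (limma p from 0.0653 to 0.102). Aqp4 lost it without PND 2, CON 1, CON 3 or the variance trend (limma p from 0.0735 to 0.0962). Gfap, P2ry12 and Ly6c1 kept it under every alternative. All 6 striatal markers were detected, so the dissected cortex was not free of them. They summed to between 116.9 and 140.9 FPKM in PND and between 80.4 and 187.6 FPKM in CON. All 6 were higher in PND (median log2 fold change 0.10), and none had a p below 0.05. Of 6 markers of inhibitory neurons 5 were higher and 1 lower (median 0.17), and of 5 of excitatory neurons 2 were higher and 3 lower (-0.12). The part of cell composition in the values of the family was not tested.

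The genes whose pattern over the 6 libraries was most like that of Syngr2, among 12323 genes averaging 1 FPKM or more, were Snhg8 (Pearson r = 0.984), Megf10 (0.982), Prdm10 (0.980), Gm37767 (0.977) and Ier2 (0.974). With 6 libraries and this many genes such coefficients are a description only.

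Effective depth was estimated at 7196000 to 9394000 fragments per library. The sum of FPKM ranged from 215640 to 240447 and mitochondrial genes took between 30.4% and 38.8% of it. No library was identical to another. The labels do not state whether the animals of a group came from separate litters or cages, and the p-values measure the spread between these animals.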

How the data were processed

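The mRNA of prefrontal cortex was measured by the authors in 3 PND and 3 CON mice. Total RNA was depleted of ribosomal RNA, sequenced on an Illumina platform, filtered with Seqtk, aligned with HISAT2 and counted with StringTie, and the counts were scaled by TMM and converted into FPKM by the authors. The deposited values were these FPKM, 1 column per animal. The submitters' processing notes also name Bowtie 0.12.2 and the builds mm8 and mm9 without saying their role, and the annotation and the use of strand were not given in the sources used here. Reads without strand cannot separate a gene from its antisense partner.

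Groups came from the treatment labels and replicate numbers from the titles. The groups were compared on log2(FPKM + 0.1) with limma 3.58.1 under R 4.3.3 (trended variance), using the 18185 genes that averaged 0.1 FPKM or more and Benjamini-Hochberg adjustment over these genes. This scale understates the change of low genes. The fit was also run on simulated data with known changes as a check of the code, which does not measure its power in these libraries. Symbols matched 20866 of 21006 identifiers, and positions, GC content and exon lengths were taken from GENCODE M21 on GRCm38. In the GC correction a loess curve (span 0.3) of deviation against GC content was subtracted in each library. Depth was estimated from the steps of FPKM multiplied by exon length, and between 41.4% and 44.7% of low values (tolerance 0.05 fragments) were whole, so fragment numbers are estimates. This matters most for Syngr2, which has few fragments. Permutation tests used SciPy 1.17.1.

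The members and gene lists were chosen with earlier results of these data known. Named genes were all members, 8 landmark genes of the vesicle cycle, every listed gene with an unadjusted p below 0.05, and the 5 genes most like Syngr2. 1 gene that this rule names is not reported here. Gm20708 and Afmid were added after their values were seen. The alternatives were other pseudocounts, filters, normalizations and variance models, a replicate block, GC correction and leaving out each library.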

Additional observations from a re-analysis of the deposited data

How the results depend on the processing

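Syngr2 kept its direction under every alternative and changed its call under some. No member passed the cut-off as reported, and 1 member, Syngr2, passed it with quantile normalization (log2 fold change -1.14, limma p of 0.045), GC correction (-1.04, p of 0.026), GC correction with the coding transcript (-1.04, p of 0.0266), replicate block with GC correction (-1.04, p of 0.0396) and without CON 1 (-1.28, p of 0.035). It missed the cut-off with the replicate block alone (-0.94, p of 0.0949), with fragment counts in voom (-1.29, p of 0.0954), with a pseudocount of 1 (-0.23, p of 0.0843) or 0.01 (-1.48, p of 0.0932), and with any library but CON 1 left out (p between 0.0596 and 0.226), and a filter of 1 FPKM removed it. Without the variance trend its p was 0.0489 at a log2 fold change of -0.94. The cause was not tested.

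Over all genes 241 passed the cut-off, 25 with a pseudocount of 1, 59 with the filter at 1 FPKM, 226 with the replicate block, and 235 to 388 with 1 library left out. The number with an adjusted p below 0.05 was 2, and it was 0 with a pseudocount of 1, no filter, quantile normalization, the replicate block or the block with GC correction, 1 with median centring or voom, and 0 to 5 with 1 library left out. Members past the cut-off numbered 0 to 1 with 1 library left out. The numbers that the libraries share pair nothing in the labels, and correlations of same-numbered libraries after removal of group means were -0.05, -0.45 and 0.03.

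Leaving out 1 library turned the log2 fold change of Syngr1 (-0.22 to 0.70), Syngr3 (-0.10 to 0.55), Synpr (-0.10 to 0.18), Snap25 (-0.11 to 0.046), Syn1 (-0.13 to 0.10), Slc17a7 (-0.36 to 0.46), Slc32a1 (-0.11 to 0.53) and Stx1a (-0.35 to 0.060). Among members, PND 3 or CON 1 did so for Syngr1 and Syngr3, and PND 3, CON 2 or CON 3 for Synpr. Quantile normalization turned Snap25 (0.031) and Syn1 (0.0061), and GC correction turned Slc17a7 (-0.079, also with the block, and -0.092 with the coding transcript). After GC correction 1 vesicle-associated and fusion protein, Stx1a, had a p below 0.05, and none did with the replicate block added. Vesicle retrieval proteins with a p below 0.05 went from 1 to 2 after GC correction, with the replicate block and GC correction, and without PND 2 or CON 2 (Ap2a1 added) or CON 1 (Amph added), and vesicle membrane proteins from 1 to 3 without CON 2 (Scamp5 and Sv2b added). The precision is limited by 3 animals per group and, for Syngr2, by few fragments.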
